A study of Rattus norvegicus with 24 samples.

Results

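The response of the rat kidney inner medulla to infused aldosterone was compared, gene by gene, with its response to a low-salt diet. The comparison used the 16 kidney libraries of the 24 in the series: 4 from rats given aldosterone, 4 from their controls, 4 from rats on low salt and 4 from rats on high salt. The quantity tested was the log2 change of aldosterone over control minus the log2 change of low over high salt, called the difference of the responses below. A positive difference means that a gene moved further upward, or less downward, with aldosterone than on low salt. Every gene in the tables entered the choice, and 18938 of 36856 had enough counts to be tested.

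Rats were Sprague-Dawley, labelled female, and weighed 120 to 200 g. All of them ate a synthetic diet for 7 days. Its Na content was 0.4% for the aldosterone, control and high-salt groups and 0.01 to 0.02% for the low-salt group, so that "high salt" names the same diet that the aldosterone rats and their controls ate. Aldosterone was infused from an osmotic minipump at 12 µg per day. The labels do not state how long the pumps ran or whether the controls carried one. Each library came from the papilla of 1 kidney, with 4 rats in each group, and the experiments share no rat and no library. Replicates 1 and 2 of a group formed batch 1 of its experiment, and replicates 3 and 4 formed batch 2.

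Aldosterone is the steroid hormone that acts through the mineralocorticoid receptor to make the distal nephron and collecting duct retain Na. Dietary Na restriction raises aldosterone through renin and angiotensin, but it also changes the salt and osmolyte content of the medulla, which the infusion with an unchanged diet need not do. The inner medulla holds collecting ducts, thin limbs, interstitial cells and vessels, and its cells adapt to high tonicity by storing organic osmolytes. Comparing the responses addresses which low-salt changes are also seen with the hormone alone.

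Library totals were 24299423 to 30614722 counts in the aldosterone experiment and 30830317 to 38318764 in the low-salt experiment. Aqp2, the water channel of collecting duct principal cells, was measured at group means of 5331 to 7108 CPM (counts scaled to a common library total). Summed over 8 markers, transcripts of the thick ascending limb, a segment of the outer medulla and cortex, ran from 1520 to 6346 CPM. Xist, transcribed from the inactive X chromosome, ran from 242 to 463 CPM in all 8 aldosterone and control libraries and from 0 to 0.0899 CPM in all 8 low-salt and high-salt libraries. Summed Y-linked transcripts were at 0.0350 to 0.323 CPM in the former and 199 to 270 CPM in the latter, which goes against the label female for the low-salt experiment. Sex pattern, deposited table and experiment cannot be told apart here.

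After aldosterone and low salt the responses differed for 10 genes (edgeR quasi-likelihood test, adjusted p under 0.05), which is 0.0528% of the 18938 tested. The difference was positive for 5 of them, Col6a3, Srxn1, Shisa2, Rrm1 and H2az1, and negative for the other 5, Usp53, Ssh2, Plscr2, Gmcl1 and Itpr1. Of the 10, 8 passed the same threshold for the low-salt response, 2 (Col6a3 and Rrm1) for the aldosterone response and 0 for both. The direction of the fitted responses was opposite for 9, the exception being Shisa2. For 7 of the 10 the low-salt response was the larger in absolute size. The background was 2.73% of genes passing for the low-salt response (517 genes, 1.27% higher and 1.46% lower on low salt) and 0.0264% for the aldosterone response (5 genes). An unadjusted p under 0.05 was reached by 2486 genes for the difference, and DESeq2 called 657 (3.47%), among them all 10. The count rested on single libraries: without low-salt replicate 1 or 3, or high-salt replicate 1 or 2, it was 0, and without high-salt replicate 4 it was 67. It fell to between 1 and 4 without aldosterone replicate 2, 3 or 4, control replicate 3, low-salt replicate 2 or high-salt replicate 3, and was 17, 18 or 24 without control replicate 4, control replicate 1 or 2, or low-salt replicate 4. The 10 genes kept their direction in every one of these fits, which reuse the libraries that selected them and are not independent evidence. The counts for the single responses were 0 to 13 (aldosterone) and 142 to 638 (low salt) with 1 library left out. Fitted in its own table with edgeR, the aldosterone response was called for 0 genes, with 1750 at an unadjusted p under 0.05, so its 5 calls, Col6a3 and Rrm1 among them, rest on the joint fit.

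**Figure D1:**
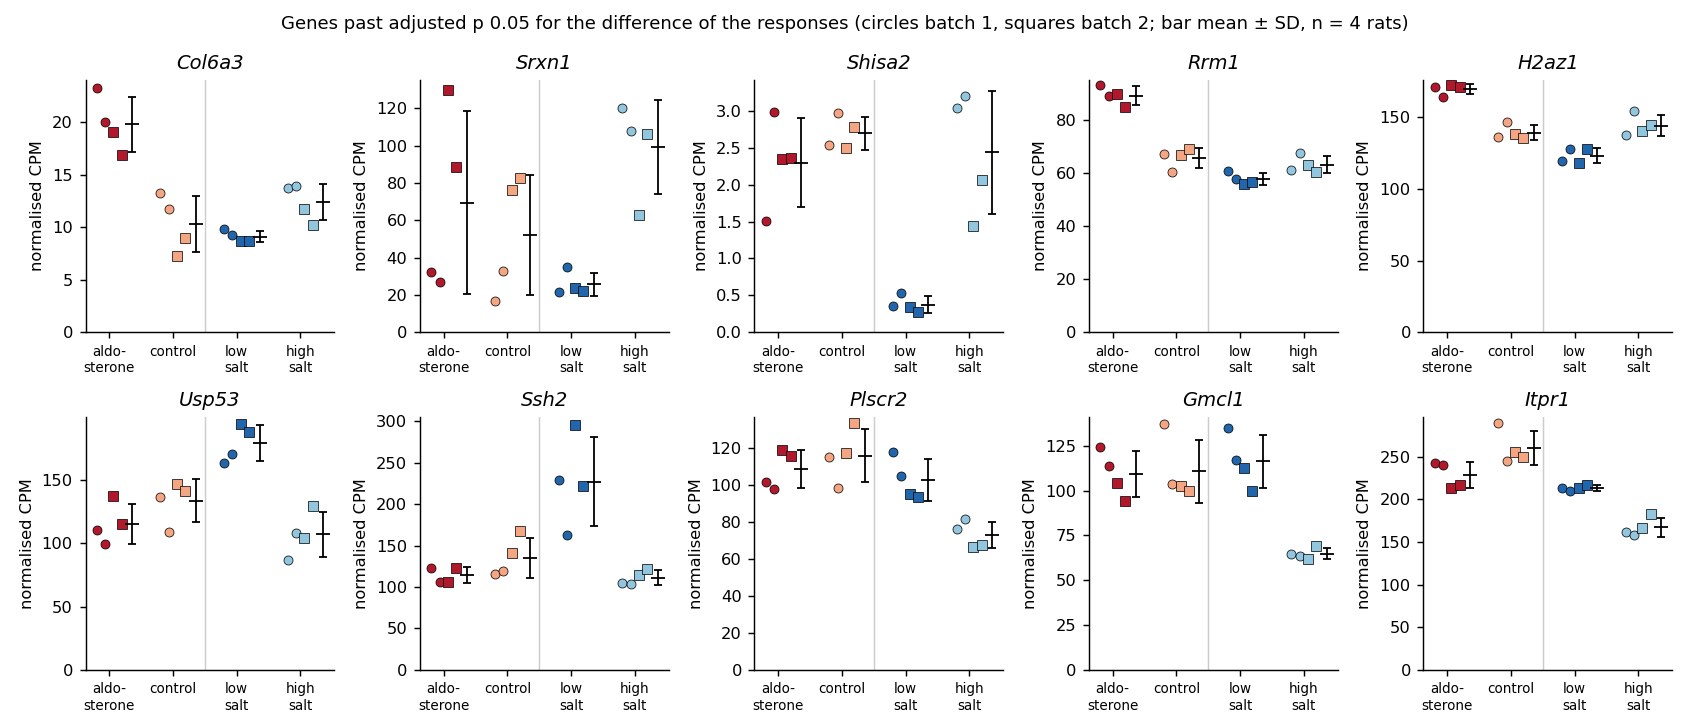
Normalised CPM (y axis, from 0) of the 10 genes past the threshold in each of the 16 libraries, by group (x axis); circles are batch 1, squares batch 2, and the bar beside each group is the mean ± SD of 4 rats. For Col6a3, Rrm1, H2az1 and Itpr1 the aldosterone and control values do not overlap, and for all but Rrm1 the low-salt and high-salt values do not overlap.

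Col6a3 encodes the alpha-3 chain of collagen VI, a microfibril of the interstitial matrix. Its level was 23.2, 20.02, 19.1 and 16.9 CPM in aldosterone replicates 1 to 4 and 13.2, 11.7, 7.26 and 9.03 CPM in the controls. On low salt it was 9.85, 9.29, 8.70 and 8.66 CPM, and on high salt 13.8, 13.9, 11.7 and 10.2 CPM. Every aldosterone library lay above every control, and every low-salt library lay below every high-salt library. Values of 4 against 4 without overlap were found for 5.06% of all genes in the aldosterone experiment and 10.9% in the low-salt experiment. Col6a3 rose by 0.97 ± 0.11 (log2 ± SE) with aldosterone (adjusted p = 0.0172), whereas its low-salt value of -0.44 ± 0.11 did not pass (adjusted p = 0.0559). The difference of the responses was 1.40 ± 0.16 (95% interval 1.06 to 1.75, adjusted p = 0.0123), the smallest p of all genes. It was 1.32 in batches 1 alone and 1.49 in batches 2 alone.

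Srxn1 encodes sulfiredoxin, which reactivates overoxidised peroxiredoxins and is a target of the oxidant-responsive factor NRF2. NRF2 binds DNA as a dimer with small Maf proteins, and the sequence around the start of Srxn1 is printed because it holds a match to TGANTCAGC, a form of their site. The match, in capitals, begins 5 bases before the start in the RefSeq GRCr8 record (chr3:161064797-161064826, + strand).
Srxn1: aaactcacccTGAGTCAGCgacccgacgcg
This motif was chosen after the Srxn1 sequence had been seen. It was present, on either strand, in 0.9623% of the windows from 250 bases before to 50 bases after the start of all tested genes that have one (147 of 15276).

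In the low-salt group Srxn1 was at 21.7, 35.0, 24.01 and 22.3 CPM, below every high-salt library at 120, 108, 62.9 and 106 CPM. In the aldosterone experiment the groups overlapped and the batches stood apart: replicates 1 and 2 were at 32.5 and 27.2 CPM with aldosterone and 16.8 and 32.7 CPM in controls, and replicates 3 and 4 at 130 and 88.8 against 76.0 and 82.9 CPM. Srxn1 fell by 1.94 ± 0.22 on low salt (adjusted p = 0.00308), and its aldosterone value was 0.37 ± 0.22 (adjusted p = 0.536). The difference was 2.30 ± 0.31 (interval 1.64 to 2.96, adjusted p = 0.0292), and 2.27 and 2.34 within batches 1 and 2.

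Shisa2, which encodes a modulator of Wnt and FGF receptor maturation, was the lowest expressed of the 10. It was at 0.358, 0.536, 0.343 and 0.270 CPM on low salt, from 9 to 17 counts a library, and at 3.04, 3.20, 1.43 and 2.06 CPM on high salt. The aldosterone values (1.51, 2.98, 2.34 and 2.36 CPM) overlapped those of the controls (2.53, 2.97, 2.49 and 2.77 CPM), and only the low-salt group lay apart from the other groups. Shisa2 fell by 2.66 ± 0.25 on low salt (adjusted p = 0.00124) against an aldosterone value of -0.23 ± 0.22 (adjusted p = 0.725), a difference of 2.43 ± 0.33 (interval 1.72 to 3.16, adjusted p = 0.0292).

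Rrm1 encodes the large subunit of ribonucleotide reductase, which makes deoxynucleotides for DNA synthesis, and H2az1 encodes the histone variant H2A.Z. Rrm1 was at 93.3, 89.0, 89.6 and 84.7 CPM with aldosterone, above all controls at 67.1, 60.3, 66.9 and 69.0 CPM. Its low-salt (60.9, 57.7, 55.9 and 56.5 CPM) and high-salt values (61.2, 67.6, 63.0 and 60.5 CPM) overlapped. It rose by 0.44 ± 0.06 with aldosterone (adjusted p = 0.0180) and had a low-salt value of -0.13 ± 0.06 (adjusted p = 0.258), with a difference of 0.57 ± 0.08 (interval 0.39 to 0.74, adjusted p = 0.0292). H2az1 moved in opposite directions without overlap in either experiment: 164 to 172 CPM with aldosterone against 135 to 147 CPM in controls, and 118 to 128 CPM on low salt against 137 to 154 CPM on high salt. Its low-salt value was -0.23 ± 0.05 (adjusted p = 0.0453), its aldosterone value 0.29 ± 0.05 (adjusted p = 0.0773) and the difference 0.51 ± 0.08 (adjusted p = 0.0327).

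The genes with a negative difference shared a rise on low salt with an aldosterone value near or below 0. Usp53, a member of the ubiquitin-specific peptidase family, was at 164, 171, 195 and 188 CPM on low salt and 86.7, 108, 104 and 130 CPM on high salt. With aldosterone it was at 110, 99.7, 137 and 115 CPM against 137, 109, 147 and 142 CPM in controls. Only the low-salt group stood clear of the other groups. Usp53 rose by 0.75 ± 0.10 on low salt (adjusted p = 0.00452), had an aldosterone value of -0.21 ± 0.10 (adjusted p = 0.400), and differed by -0.96 ± 0.14 (interval -1.25 to -0.66, adjusted p = 0.0292). Ssh2 encodes slingshot phosphatase 2, which dephosphorylates the actin-severing protein cofilin. It was at 228.9, 163, 296 and 222 CPM on low salt and 104, 103, 115 and 122 CPM on high salt, without overlap, and its aldosterone values (106 to 123 CPM) overlapped those of the controls (115 to 168 CPM). It rose by 1.02 ± 0.13 on low salt (adjusted p = 0.00452) against -0.23 ± 0.13 with aldosterone (adjusted p = 0.515), a difference of -1.25 ± 0.18 (adjusted p = 0.0295).

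Gmcl1 (a BTB-domain protein related to fly germ cell-less), Plscr2 (phospholipid scramblase family) and Itpr1 (the type 1 inositol trisphosphate receptor, a calcium release channel) showed another arrangement of the levels. Gmcl1 was at 135, 117, 113 and 100 CPM on low salt and 64.9, 63.6, 62.0 and 69.2 CPM on high salt. In the aldosterone experiment it was at 124, 114, 104 and 94.2 CPM with hormone and 137, 104, 102 and 99.7 CPM in controls. The controls, on the same 0.4% Na diet as the high-salt rats, thus lay above all high-salt libraries and within the low-salt range or close to it. Plscr2 was likewise at 98.1 to 133 CPM in controls, 66.4 to 81.4 CPM on high salt and 93.3 to 118 CPM on low salt. Itpr1, at 245 to 290 CPM in controls, lay above both high salt (158 to 183 CPM) and low salt (210 to 217 CPM), and its aldosterone libraries, at 243, 240, 213 and 216 CPM, were all below their controls. Control and high-salt levels come from different experiments, and what separates them was not tested. The low-salt rise was 0.84 ± 0.09 for Gmcl1, 0.50 ± 0.06 for Plscr2 and 0.35 ± 0.06 for Itpr1 (adjusted p = 0.00302, 0.00452 and 0.0112). The aldosterone values were -0.02 ± 0.09, -0.10 ± 0.06 and -0.19 ± 0.06 (adjusted p = 0.945, 0.583 and 0.200). The differences were -0.86 ± 0.13, -0.59 ± 0.09 and -0.55 ± 0.08 (adjusted p = 0.0327, 0.0327 and 0.0330).

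Genes of cell division had the largest median differences among the lists examined. For the 26 genes of mitosis and the cell cycle, all listed and all tested, the difference was positive for 26 of 26, with a median of 1.93 against -0.01 for all genes. None passed the threshold in edgeR, while 24 had an unadjusted p under 0.05 and DESeq2 called 23, against 6.75% and 1.96% of all genes in that direction. The median aldosterone value of the list was 1.52 and the median low-salt value -0.45. For the 26 genes of DNA replication the difference was positive for 26 of 26, with a median of 0.83. Rrm1 passed in edgeR, 23 had an unadjusted p under 0.05, and DESeq2 called 16. Of the 215 genes with an adjusted p from 0.05 to under 0.1, 18 belonged to these lists, all 18 with a positive difference, among 119 positive and 96 negative.

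Mki67, the proliferation antigen Ki-67, was at 37.7, 31.3, 32.7 and 52.5 CPM with aldosterone and 4.88, 11.6, 12.3 and 19.5 CPM in controls. On low salt it was at 9.04, 5.39, 5.33 and 8.18 CPM, and on high salt at 16.4, 17.5, 8.29 and 2.95 CPM. The aldosterone group lay above all other libraries, while the salt groups overlapped, high-salt replicates 3 and 4 lying as low as the low-salt rats. The difference for Mki67 was 2.24 ± 0.57 (adjusted p = 0.103). Aurkb, the Aurora B kinase of chromosome segregation, had the smallest p of the mitosis list (2.47 ± 0.51, adjusted p = 0.0675). Its values were 5.85, 4.08, 4.36 and 8.37 CPM with aldosterone and 0.857, 1.99, 1.94 and 2.23 CPM in controls, 1.28, 0.882, 1.06 and 1.32 CPM on low salt and 3.63, 2.56, 1.41 and 0.973 CPM on high salt. As for Mki67, the aldosterone libraries stood above the rest. In the aldosterone experiment 25 of the 26 mitosis genes did not overlap between the groups, all higher with the hormone, against 5.06% of all genes. In the low-salt experiment 0 of 26 did not overlap, against 10.9% of all genes, so few were to be looked for there.

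Within the replication list, Tyms, thymidylate synthase, had nearly equal responses: its values were 0.52 with aldosterone and 0.50 on low salt, and the difference was 0.02 ± 0.13 (adjusted p = 0.968). Its levels did not overlap in either experiment, with 56.4 to 69.8 CPM against 39.7 to 50.2 CPM and 35.2 to 46.0 CPM against 26.8 to 32.9 CPM. Of the 26 replication genes, 16 were higher with aldosterone without overlap, against 5.06% of all genes in either direction. On low salt 4 were lower and 1, Tyms, was higher without overlap, against 10.9% of all genes in either direction.

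The upstream sequences of this group are printed because E2F factors and the CCAAT-binding factor NF-Y are known regulators of replication and mitosis genes. The E2F motif TTTNGCGC, on either strand, was found in the windows (250 bases before to 50 after the start) of 12 of the 22 replication genes that have one (54.55%), of 1 of 18 mitosis genes and of 1.866% of all tested genes. The CCAAT pentamer was found in 15 of 18 mitosis genes (83.33%), 13 of 22 replication genes (59.09%) and 37.25% of all genes. Of the 10 genes called for the difference 9 had a window, with CCAAT in 2 (22.22%) and the E2F motif in 0. The 250 bases before the start of Mcm5 (chr19:13488563-13488812, + strand), Mcm6 (chr13:42404353-42404602, - strand) and Mcm7 (chr12:22163179-22163428, - strand), subunits of the replicative helicase, show the E2F motif in capitals. Those of Nusap1 (chr3:127057045-127057294, + strand), a mitotic spindle protein, and H2az1 (chr2:229028845-229029094, + strand), a called gene on neither list, show CCAAT or its reverse complement in capitals. All are RefSeq GRCr8 sequences read 5′ to 3′ on the gene's strand, and where a pair of E2F matches overlaps, 1 run of capitals covers both.
Mcm5: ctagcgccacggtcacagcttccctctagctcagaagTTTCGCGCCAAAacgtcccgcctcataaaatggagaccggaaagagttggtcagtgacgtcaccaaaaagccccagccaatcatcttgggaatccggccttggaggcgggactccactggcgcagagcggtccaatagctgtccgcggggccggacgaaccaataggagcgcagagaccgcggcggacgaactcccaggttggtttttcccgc
Mcm6: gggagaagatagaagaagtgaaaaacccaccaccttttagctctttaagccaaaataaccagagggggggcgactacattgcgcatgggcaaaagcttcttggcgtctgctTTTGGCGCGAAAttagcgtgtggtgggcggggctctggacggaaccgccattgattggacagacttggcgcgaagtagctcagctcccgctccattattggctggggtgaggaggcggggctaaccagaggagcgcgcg
Mcm7: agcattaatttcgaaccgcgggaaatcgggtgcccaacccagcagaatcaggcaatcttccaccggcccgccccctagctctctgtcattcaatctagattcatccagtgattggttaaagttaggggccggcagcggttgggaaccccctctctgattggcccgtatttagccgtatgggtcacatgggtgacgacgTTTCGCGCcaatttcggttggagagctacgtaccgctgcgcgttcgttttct
Nusap1: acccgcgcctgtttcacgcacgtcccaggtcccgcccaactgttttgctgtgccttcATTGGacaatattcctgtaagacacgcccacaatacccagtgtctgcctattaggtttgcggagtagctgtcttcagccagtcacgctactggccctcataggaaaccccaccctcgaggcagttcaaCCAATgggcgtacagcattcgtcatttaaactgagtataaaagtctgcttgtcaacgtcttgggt
H2az1: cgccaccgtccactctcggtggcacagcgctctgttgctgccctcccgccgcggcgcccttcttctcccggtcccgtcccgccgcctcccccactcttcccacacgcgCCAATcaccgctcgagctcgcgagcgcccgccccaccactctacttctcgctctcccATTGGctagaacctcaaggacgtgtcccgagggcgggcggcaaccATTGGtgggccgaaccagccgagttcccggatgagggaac
A match to letters is not a binding site, and no binding was measured here.

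The 3 helicase genes with printed sequences moved in unequal amounts. Mcm5 was at 39.9, 19.9, 22.8 and 31.0 CPM with aldosterone against 9.50, 12.8, 8.73 and 18.5 CPM in controls, and at 9.29 to 11.7 CPM on low salt against 13.4 to 14.4 CPM on high salt. Neither pair overlapped, and the difference was 1.55 ± 0.34 (adjusted p = 0.0843). Mcm6 was at 40.9, 25.99, 33.0 and 35.7 CPM with aldosterone against 13.6, 15.3, 11.7 and 22.9 CPM in controls, with overlapping salt groups (11.4 to 17.3 and 12.7 to 17.0 CPM) and a difference of 1.21 ± 0.29 (adjusted p = 0.0917). Mcm7 differed by the smaller 0.44 ± 0.10 (adjusted p = 0.0853), with 45.1 to 50.1 CPM against 32.2 to 39.4 CPM in the aldosterone experiment.

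**Figure D2:**
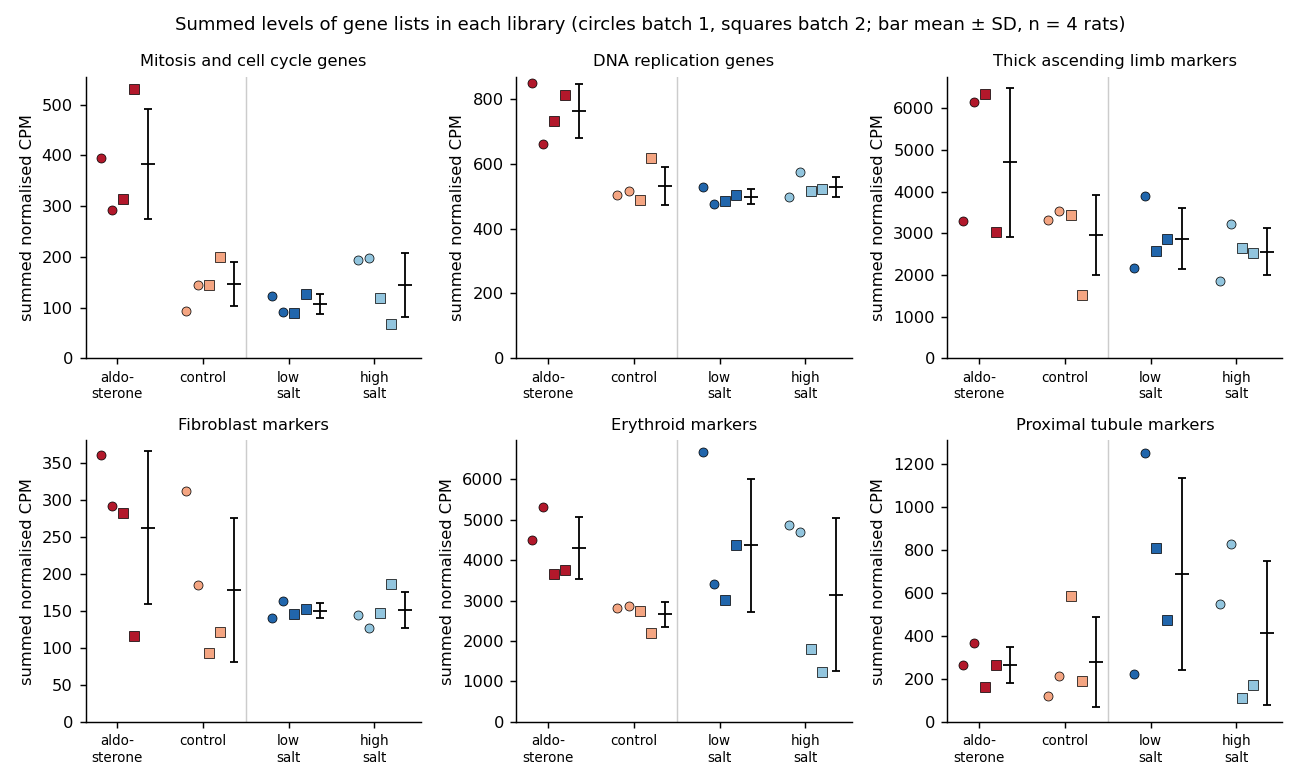
Summed normalised CPM (y axis, from 0) of 6 gene lists in each library by group (x axis); circles are batch 1, squares batch 2, and bars are the mean ± SD of 4 rats. The mitosis sum is 292 to 531 CPM with aldosterone and 67.2 to 201 CPM in the other 12 libraries, while the proximal tubule and erythroid sums spread widely within groups.

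The mitosis list summed to 292 to 531 CPM with aldosterone, 94.2 to 201 CPM in controls, 89.2 to 126 CPM on low salt and 67.2 to 198 CPM on high salt. Its median difference was 2.67 in batches 1 alone and 1.13 in batches 2 alone, and between 1.71 and 2.15 with any 1 library left out. Several marker lists of other cell types also had a positive median difference. Fibroblast markers summed to 117 to 361 CPM with aldosterone and 93.5 to 312 CPM in controls, with 7 of 7 tested markers positive and a median of 0.80. Those of the thick ascending limb (3029 to 6346 CPM and 1520 to 3539 CPM) were positive for 8 of 8 with a median of 0.61, which was 0.30 and 0.99 in batches 1 and 2 and 0.36 without aldosterone replicate 3. Urothelial markers (357 to 657 CPM and 274 to 397 CPM) were positive for 7 of 9 with a median of 0.77, which was 1.80 and -0.21 in batches 1 and 2 and 0.26 without high-salt replicate 1. Leukocyte markers (167 to 264 CPM and 121 to 306 CPM) were positive for 12 of 15 with a median of 0.49, or 0.06 without aldosterone replicate 3, and smooth muscle markers (201 to 311 CPM and 153 to 268 CPM) for 6 of 6 with a median of 0.39, or 0.14 without control replicate 3. Erythroid markers separated aldosterone from control without overlap (3652 to 5311 CPM against 2198 to 2876 CPM), with an aldosterone value above 0 for 13 of 13. They leaned the same way on low salt (12 of 13 above 0), and their median difference was 0.07. Intercalated cell markers were above 0 for 12 of 12 in both responses, and their sums overlapped between aldosterone and control (4019 to 5331 CPM and 2839 to 4970 CPM). Principal cell markers had a negative difference for 8 of 10, with a median of -0.17, which was -0.33 and -0.25 in batches 1 and 2. Of these 10, 3 were negative at an unadjusted p under 0.05, against 6.37% of all genes, and DESeq2 called 0. The part of these lists in the result was not tested. No marker of these lists was at 0 in all 16 libraries. In bulk tissue, fewer cells of a type and less RNA per cell cannot be told apart.

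Matrix genes leaned the same way with smaller differences. Of the 36 listed collagen and matrix genes 34 were tested, with a positive difference for 33 and a median of 0.60. Col6a3 passed in edgeR, 13 had an unadjusted p under 0.05, and DESeq2 called 4 (Col6a3, Loxl2, Fbn1 and Col6a1), against 6.75% and 1.96% of all genes in that direction. Fbn1, the microfibril protein fibrillin-1, was at 21.7, 16.01, 22.6 and 14.3 CPM with aldosterone and 14.98, 14.7, 6.65 and 8.09 CPM in controls. It was at 8.86 to 11.7 CPM on low salt and 10.6 to 16.3 CPM on high salt. The groups overlapped in both experiments, and the difference was 1.15 ± 0.31 (adjusted p = 0.116). Col1a1, the fibrillar collagen I chain and also a fibroblast marker, had a difference of 1.30 ± 0.49 (adjusted p = 0.270). In the aldosterone experiment 6 of the 34 genes were higher with the hormone without overlap, against 5.06% of all genes in either direction.

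Of 18 oxidant-response and pentose phosphate genes, all tested, 14 had a positive difference (median 0.47). The aldosterone value was above 0 for 12 and the low-salt value for 7, and the summed list overlapped between low salt (3746 to 5228 CPM) and high salt (4617 to 6399 CPM). Srxn1 passed in edgeR and DESeq2 called 5 (Srxn1, Me1, Hmox1, Nqo1 and Ftl1), all positive, against 1.96% of all genes in that direction. The list's median aldosterone value was 0.24 and its median low-salt value -0.43, and 5 genes passed for a fall on low salt, against 1.46% of all genes. Me1, malic enzyme, which yields NADPH, was at 168, 190, 204 and 250 CPM on low salt and 430, 559, 411 and 465 CPM on high salt, without overlap. Its aldosterone values (229.5, 287, 354 and 388 CPM) overlapped the controls (228.4, 329, 446 and 352 CPM), and its difference was 1.10 ± 0.21 (adjusted p = 0.0648). Nqo1, a quinone reductase, had a difference of 1.44 ± 0.42 (adjusted p = 0.146). In the aldosterone experiment its batches stood apart more than its treatments, at 40.0 to 43.1 CPM in the 4 libraries of batch 1 and 132 to 287 CPM in the 4 of batch 2. The list's median difference was 1.14 in batches 1 and 0.32 in batches 2. Gclc and Gclm, the subunits of the ligase that starts glutathione synthesis, had differences of -0.05 and 0.05 with wide intervals, -1.78 to 1.67 and -1.05 to 1.15. Besides Srxn1, only Me1 of the 13 genes of the list with a window held TGANTCAGC, shown in capitals in the 250 bases before its start (chr8:96540245-96540494, - strand, RefSeq GRCr8).
Me1: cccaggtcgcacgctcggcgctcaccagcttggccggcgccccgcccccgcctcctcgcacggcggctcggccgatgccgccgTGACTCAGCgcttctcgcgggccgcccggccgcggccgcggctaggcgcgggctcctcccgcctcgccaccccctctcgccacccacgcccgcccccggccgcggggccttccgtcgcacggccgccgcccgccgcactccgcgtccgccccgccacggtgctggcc
Another antioxidant motif, TGACNNNGC, was searched first and was in 3 of 13 and in 13.67% of all windows. It was in 0 of the 9 called genes with a window, so Srxn1 lacks it.

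The summed osmolyte list was lower without overlap in both experiments. It was 5663 to 7884 CPM with aldosterone against 8028 to 9993 CPM in controls. On low salt it was 4823 to 6991 CPM against 11786 to 15703 CPM on high salt. The median values were -0.15 with aldosterone and -0.24 on low salt, with 5 of 15 genes above 0 in each response. Akr1b1, aldose reductase, makes sorbitol and is a target of the tonicity factor NFAT5. It was at 1622, 3109, 2752 and 3136 CPM on low salt and 7923, 7376, 10521 and 9517 CPM on high salt. With aldosterone it was at 2410, 4350, 3837 and 3223 CPM against 3962, 5960, 4709 and 4705 CPM in controls. The high-salt libraries were above all others, controls on the same diet included. Those controls belong to the other experiment, and what separates the levels was not tested. Akr1b1 fell by 1.73 ± 0.21 on low salt (adjusted p = 0.00452), and its aldosterone value was -0.48 ± 0.21 (adjusted p = 0.370). Its difference of 1.25 ± 0.30 did not pass (adjusted p = 0.0917). The counts are estimates, and any sharing of reads between Akr1b1 and the related Akr1b8 was not tested. Nfat5 went the other way: it was at 678 to 761 CPM on low salt against 433 to 515 CPM on high salt and at 382 to 548 CPM in the aldosterone experiment, with a difference of -0.62 ± 0.16 (adjusted p = 0.106). Slc6a12, the betaine transporter, had a difference of 1.39 ± 0.56 (adjusted p = 0.307). Of 15 osmolyte genes 10 had a positive difference, with a median of 0.20 (0.13 when low-salt replicate 1 was left out, 0.30 when high-salt replicate 4 was), and 0 passed in edgeR. At an unadjusted p under 0.05 there were 4 positive and 3 negative, against 6.75% and 6.37% of all genes. DESeq2 called 2 and 1, against 1.96% and 1.51%.

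Glycolytic and hypoxia-induced genes had a positive difference in 24 of 25 (median 0.45), with 0 past the threshold in edgeR. At an unadjusted p under 0.05 there were 15, of them 14 positive, and DESeq2 called 8, all positive. The shares of all genes in that direction were 6.75% and 1.96%. Aldoa, the glycolytic aldolase, had a difference of 0.50 ± 0.12 (adjusted p = 0.0917) and Gapdh one of 0.51 ± 0.13 (adjusted p = 0.104). Egln3, a prolyl hydroxylase of the hypoxia pathway, was at 37.4 to 58.3 CPM on low salt and 54.6 to 116 CPM on high salt, with overlap, and differed by 0.92 ± 0.27 (adjusted p = 0.151). Pfkfb3, which makes the glycolytic activator fructose 2,6-bisphosphate, was the exception at -0.68 ± 0.24 (adjusted p = 0.245).

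Corticosteroid-induced genes had mostly negative differences, that is, a larger low-salt than aldosterone value. Of 23 listed genes 21 were tested, 14 with a negative difference and a median of -0.34. None passed in edgeR, 6 had an unadjusted p under 0.05, all 6 negative, and DESeq2 called Zbtb16 and Birc3, against 6.37% and 1.51% of all genes in that direction. The median response was 0.14 to aldosterone and 0.45 to low salt, and the median difference was -0.54 in batches 1 and -0.03 in batches 2. Zbtb16, a zinc-finger repressor that glucocorticoids induce, was at 51.7, 58.4, 45.6 and 41.5 CPM on low salt and 9.04, 10.4, 7.20 and 11.9 CPM on high salt. With aldosterone it was at 59.1, 68.5, 47.1 and 35.8 CPM and in controls at 114, 28.9, 37.1 and 43.4 CPM. The high-salt group lay below every other library, controls on the same diet included, and control replicate 1 lay above all. Control and high-salt rats belong to different experiments, which also differ in sex pattern, and what separates their levels was not tested. Zbtb16 rose by 2.35 ± 0.32 on low salt (adjusted p = 0.00535), its aldosterone value was -0.06 ± 0.30 (adjusted p = 0.953), and the difference was -2.41 ± 0.43 (interval -3.34 to -1.49, adjusted p = 0.0590). Leaving out 1 library at a time moved it between -2.67 and -1.89, with 3 of 16 fits past the threshold.

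Scnn1a encodes the alpha chain of ENaC, through which collecting duct cells take up Na, and is a textbook target of aldosterone. It had the highest aldosterone and low-salt values of the 29 named genes. It was at 98.8, 123, 131 and 88.1 CPM with aldosterone against 56.3, 33.9, 31.8 and 63.9 CPM in controls, and at 242, 148, 104 and 152 CPM on low salt against 32.1, 19.6, 27.03 and 20.6 CPM on high salt. Neither pair of groups overlapped. The aldosterone value was 1.25 ± 0.27 (adjusted p = 0.0834) and the low-salt rise 2.67 ± 0.28 (adjusted p = 0.00226). The difference was -1.42 ± 0.37 (interval -2.23 to -0.62, adjusted p = 0.111), and -1.62 and -1.22 within batches 1 and 2. The beta and gamma subunits, Scnn1b and Scnn1g, had aldosterone values of 0.02 ± 0.23 and -0.14 ± 0.22 and low-salt values of 0.90 ± 0.23 and 0.54 ± 0.22, with differences of -0.88 (interval -1.59 to -0.17, adjusted p = 0.267) and -0.68 (interval -1.36 to -0.01, adjusted p = 0.377). Over the 30 genes of ENaC and distal transport 17 had a negative and 13 a positive difference, with a median of -0.10, which was 0.04 in batches 2 alone and 0.02 without high-salt replicate 1. None passed in edgeR, and 6 had an unadjusted p under 0.05, against 13.1% of all genes in either direction. DESeq2 called 3, against 3.47% of all genes: Scnn1a, Tmprss2 (a transmembrane serine protease) and Cap1 (as a gene symbol, the actin-binding cyclase-associated protein rather than a channel-activating protease).

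Sgk1, the kinase that keeps ENaC at the membrane, was at 775, 730, 609 and 944 CPM with aldosterone and 850, 1159, 690 and 806 CPM in controls. On low salt it was at 1079, 966, 961 and 1096 CPM and on high salt at 344, 760, 859 and 879 CPM. The low-salt group lay above high salt, and the aldosterone and control groups overlapped. Neither response passed (-0.18 ± 0.23 and 0.57 ± 0.23), and the difference of -0.75 (interval -1.45 to -0.05, adjusted p = 0.346) was -1.31 in batches 1 and -0.18 in batches 2. Per1, a clock gene that aldosterone induces in collecting duct cells, was at 58.4 to 75.7 CPM with aldosterone against 43.0 to 53.0 CPM in controls and 87.9 to 140 CPM on low salt against 31.3 to 68.6 CPM on high salt. Its difference was -0.63 (interval -1.26 to -0.01, adjusted p = 0.377). Usp2, a ubiquitin peptidase induced by aldosterone, had nearly equal values, 0.86 ± 0.24 with aldosterone and 0.81 ± 0.24 on low salt, and a difference of 0.05 whose interval ran from -0.69 to 0.78.

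Among the other genes of the fixed set, the differences were -0.50 for Fkbp5 (a receptor co-chaperone), -0.47 for Tsc22d3 (GILZ), -0.38 for Klhl3 (an adaptor that degrades WNK kinases), -0.34 for Errfi1 (an EGF receptor inhibitor), -0.22 for Nr3c2 (the mineralocorticoid receptor) and -0.12 for Hsd11b2 (which inactivates glucocorticoids in these cells). They were 0.30 for the urea transporter Slc14a2, 0.18 for Pdk4 (pyruvate dehydrogenase kinase) and 0.11 for Aqp2. All 9 intervals included 0, with adjusted p from 0.387 to 0.926. The widest of them ran from -0.93 to 0.68, for Hsd11b2. Prkcd, protein kinase C delta, was the fixed gene with a positive difference closest to the threshold. It was at 111, 110, 97.0 and 92.9 CPM with aldosterone, 66.2, 53.7, 55.1 and 58.3 CPM in controls, 52.6 to 56.0 CPM on low salt and 47.8 to 66.5 CPM on high salt. Its rise of 0.81 ± 0.11 with aldosterone passed in the joint fit (adjusted p = 0.0180) but, like every aldosterone call, not in the aldosterone table alone. Its low-salt value was -0.03 ± 0.10, and the difference was 0.84 ± 0.15 (interval 0.53 to 1.16, adjusted p = 0.0590).

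**Figure D3:**
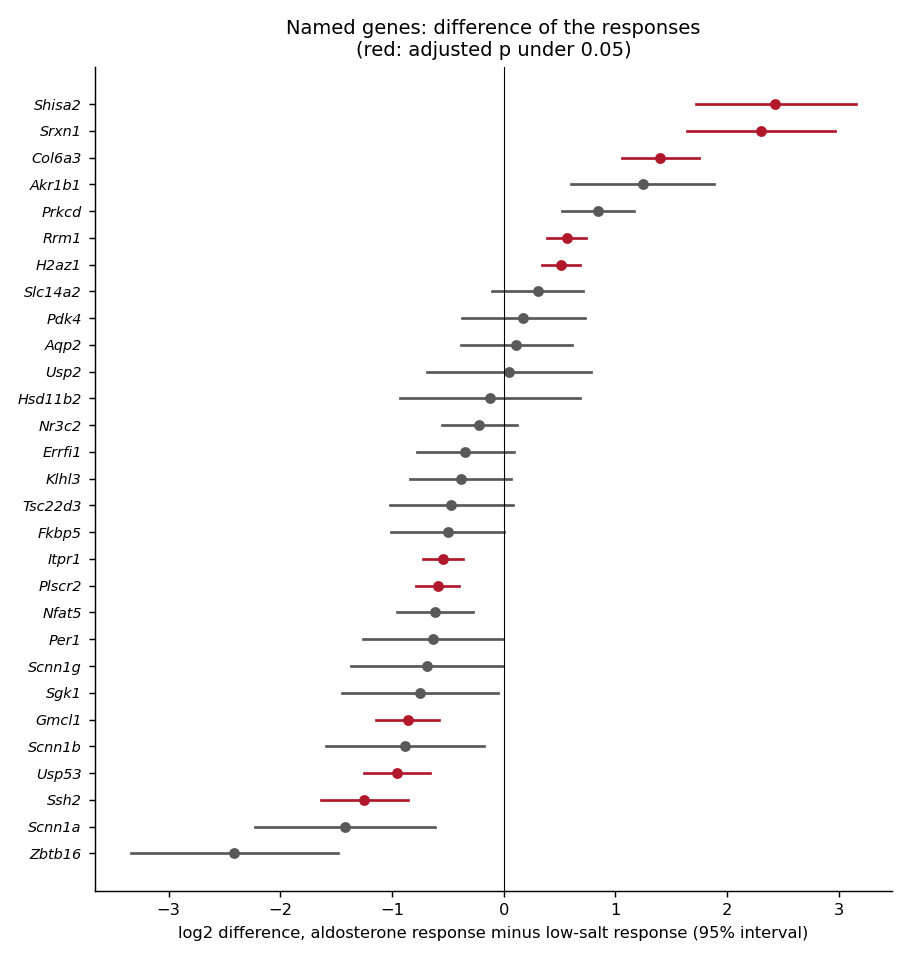
Difference of the responses (x axis, log2, aldosterone minus low salt) for the 29 named genes (y axis), with its 95% interval as a bar; red marks the 10 genes with an adjusted p under 0.05. Scnn1a and Zbtb16 lie far below 0 with wide intervals that exclude 0 and were not called, and the intervals of Usp2, Aqp2 and Hsd11b2 cross 0.

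The NF-kB list held negative differences in a few genes within a median near 0 (0.01 over 17 of 20 listed genes). None passed in edgeR, and 5 negative and 1 positive had an unadjusted p under 0.05, against 6.37% and 6.75% of all genes. DESeq2 called Vcam1, Ltb and Tnf, all negative, against 1.51% of all genes in that direction. Ltb, the lymphotoxin beta chain, was at 41.8, 32.9, 34.5 and 18.5 CPM on low salt and 6.54, 6.17, 7.15 and 11.8 CPM on high salt. With aldosterone it was at 19.8, 13.8, 16.4 and 6.87 CPM against 11.3, 11.5, 9.58 and 12.0 CPM in controls. The low-salt group did not overlap high salt, and the aldosterone group overlapped its controls, with a difference of -1.68 ± 0.43 (adjusted p = 0.106). Vcam1, a leukocyte adhesion molecule, had a difference of -1.70 ± 0.32 (adjusted p = 0.0648).

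**Figure D4:**
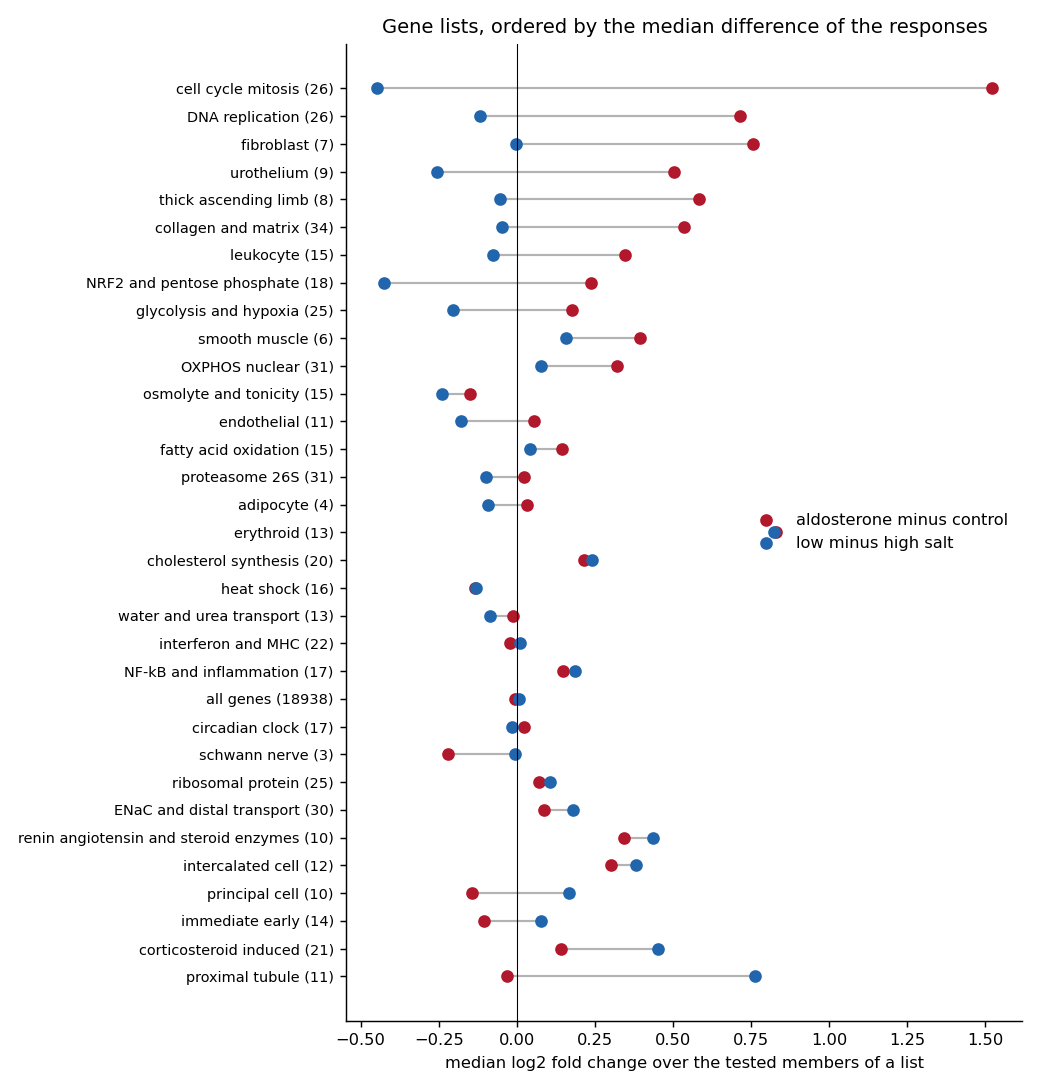
Median log2 change over the tested members of 32 gene lists and of all genes (y axis, number tested in brackets), in response to aldosterone (red) and to low salt (blue); lists are ordered by their median difference of the responses. Mitosis genes lie farthest apart, at 1.52 and -0.45, and all genes lie at -0.01 and 0.01.

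Lists at or near the median of all genes included ribosomal proteins (median difference -0.05, 9 of 25 positive), cholesterol synthesis (0.05, 11 of 20), water and urea transport (0.04, 7 of 13) and the circadian clock (-0.02, 7 of 17). None of their members passed in edgeR and none was called by DESeq2. At an unadjusted p under 0.05 there were 2 positive and 1 negative gene of cholesterol synthesis, 1 of water and urea transport, 1 of the clock and 0 ribosomal proteins. The share of all genes was 13.1%, in either direction. For cholesterol synthesis the values were alike in direction, with medians of 0.21 with aldosterone and 0.24 on low salt. Ribosomal proteins had 24 of 25 genes above 0 in either response, with medians of 0.07 and 0.11.

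Over 18938 genes Pearson's r between the aldosterone and the low-salt log2 change was 0.11 and Spearman's rho 0.10, given as a description, since genes are not independent replicates. With 1 library left out r ran from 0.0090 to 0.14, and it was under 0.08 without aldosterone replicate 1 or 2, control replicate 2, low-salt replicate 3 or 4, or high-salt replicate 3 or 4. In batches 1 alone r was 0.044, in batches 2 alone -0.0076, and with no filter 0.014. Over the 517 genes called on low salt r was 0.46 (rho 0.36). Over the 91 of them that changed 2-fold or more it was 0.52 (rho 0.45). Choosing genes by a large low-salt change can raise r by itself, so these values do not show closer agreement. Within the 241 genes that rose on low salt rho was 0.04, and within the 276 that fell it was 0.32. The values had the same sign for 53.8% of genes. Among the 276 genes that fell on low salt, 216 (78.3%) also had a negative aldosterone value, against 51.2% of all genes, and among the 241 that rose on low salt 126 (52.3%) had a positive one. The share among genes that fell was 69.4% to 84.3% with any 1 library left out and 71.7% with DESeq2. Among genes that rose it was 41.0% to 61.0% and 55.8%.

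**Figure D5:**
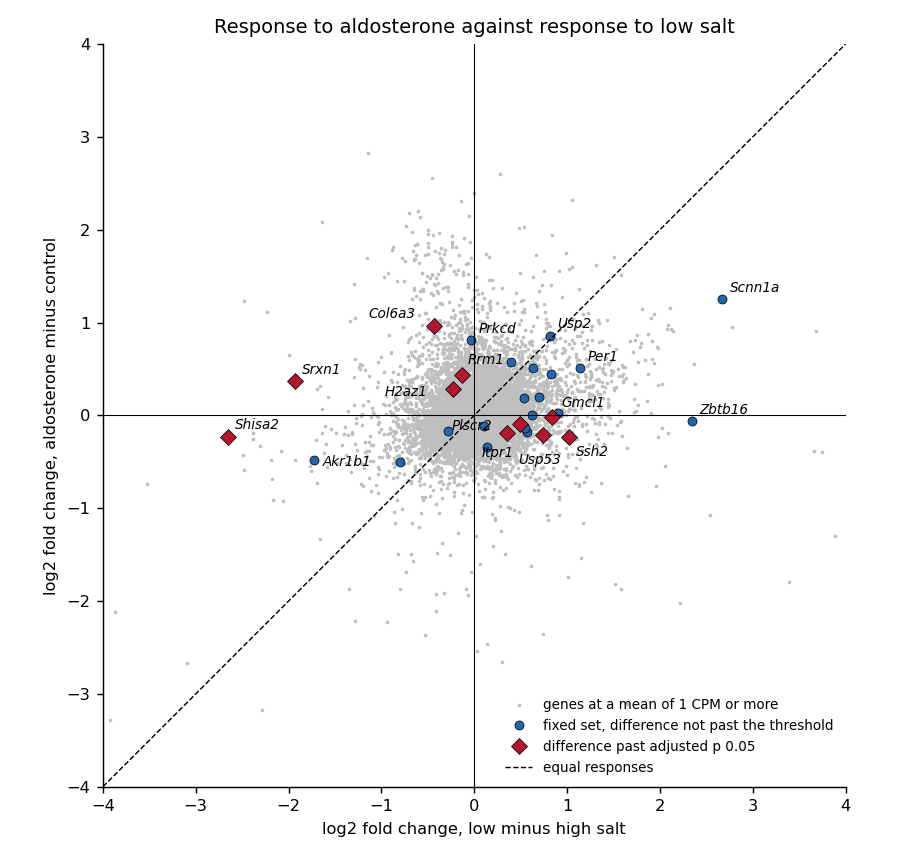
Log2 change with aldosterone (y axis) against log2 change on low salt (x axis) for 15160 genes with a mean of at least 1 CPM; the dashed line marks equal responses, red diamonds the 10 called genes and blue circles the other named genes. Among the named genes Scnn1a lies farthest to the upper right, at 2.67 and 1.25, and of the 10 called genes only Shisa2 has the same sign on both axes.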

How the data were processed

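Papilla mRNA was sequenced from 16 rats; per the labels' protocols, a stranded TruSeq kit and single-end reads on a NovaSeq X Plus were used. Salmon, Trimmomatic, MultiQC and bcl2fastq 2.19 appear in the submitters' processing notes, while the genome build was not given in the sources used here. Expected counts, which are estimates with decimals, were deposited by the authors in 1 table of 36856 genes for each kidney experiment. The heart table was not used here.

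Expected counts were rounded and both tables fitted jointly with edgeR 4.0.16 in R 4.3.3: filterByExpr with a minimum count of 10, TMM scaling, and the quasi-likelihood F test with 1 intercept per table and batch, 1 aldosterone term and 1 low-salt term. Adjusted p is Benjamini-Hochberg over all 18938 genes, with a threshold of 0.05. CPM values are scaled to effective library sizes. At the lowest total, 24299423, 1 CPM is about 24 counts. p-values measure the spread between rats as labelled. Chi-square per gene was 28.7 to 70.1 over the 24 same-group pairs, well above sampling noise, so each library was counted as its own sample.

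Named genes are those past the threshold at a mean of 1 CPM or more with the same sign in both batches (up to 15 per direction), up to 3 called members per list, a set of 19 corticosteroid, transport and osmolyte genes whatever their p, and the 4 smallest p. Other list members given as examples were chosen after their values were seen. Members, lists and this rule were chosen with earlier results of these data known, so they are not independent evidence. Gene symbols and sequences were matched to RefSeq tables of GRCr8; 15276 tested genes had a promoter window, searched on both strands. The test was run on simulated counts with 200 genes changed in the aldosterone group alone. That setting does not address the dependence of the calls on single libraries. Alternatives were DESeq2 1.42.0, limma voom (limma 3.58.1), other scalings and filters, no batch term, a replicate block, batches alone, each response fitted in its own table, and each library left out.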

Additional observations from a re-analysis of the deposited data

Results flagged for a closer look

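Among 152 groups of 4 values examined for a value far from the rest, 4 held one, where chance would give about 1 in 20. Gmcl1 was at 137 CPM in control replicate 1 and 99.7 to 104 CPM in the other controls. Zbtb16 was at 114 CPM in the same library and 28.9 to 43.4 CPM in the others. Summed thick ascending limb markers were at 1520 CPM in control replicate 4 against 3316 to 3539 CPM. Summed urothelial markers were at 975 CPM in high-salt replicate 1 against 397 to 483 CPM. The count of called genes was 18, 17 and 0 without control replicate 1, control replicate 4 and high-salt replicate 1.

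The responses differed by the test of the difference itself (edgeR, adjusted p under 0.05) for 10 genes. The log2 difference was 2.43 for Shisa2, 2.30 for Srxn1, 1.40 for Col6a3, 0.57 for Rrm1 and 0.51 for H2az1. It was -1.25 for Ssh2, -0.96 for Usp53, -0.86 for Gmcl1, -0.59 for Plscr2 and -0.55 for Itpr1.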

How the results depend on the processing

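The difference of the responses was called for 10 genes by the edgeR fit described above. The count was 657 with DESeq2 and 52 with no filter, and 0 with no batch term, in batches 1 alone and in batches 2 alone. It was within 1.5 times of 10 under limma voom, other scalings and a 1 CPM filter, and 0 to 67 with 1 library left out. The aldosterone response, 5 genes, was 493 with DESeq2, 8 with voom, 42 with no filter, 8 with the 1 CPM filter, 2 with no batch term, 1 and 0 in batches 1 and 2, 0 in its own table, and 0 to 13 with 1 library left out: 0 without aldosterone replicate 1 or 3 or control replicate 2, 3 without control replicate 3, low-salt replicate 2 or 3 or high-salt replicate 1, and 8 and 13 without control replicate 1 or 4. The low-salt response, 517 genes, was 1490 with DESeq2, 323 with no batch term, 2 and 0 in batches 1 and 2, and 142 to 638 with 1 library left out, falling to 287 or fewer without any 1 low-salt replicate or high-salt replicate 1, 2 or 3.

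With the replicate block the counts were 0 for the difference, 0 for aldosterone and 616 for low salt. Same-numbered libraries share only a number: their deviations correlated between -0.06 and 0.35, not all above 0.1.

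The sign turned, for genes whose interval included 0, for Klhl3 (0.026) and Errfi1 (0.012) in batches 2, Pdk4 (-0.14) in batches 1, Aqp2 (-0.0023 without aldosterone replicate 4, -0.0023 to 0.24 leave-one-out), Hsd11b2 (0.41 in batches 2; -0.32 to 0.10 leave-one-out) and Usp2 (-0.023 with voom, -0.23 in batches 1; -0.19 to 0.29 leave-one-out). The causes were not tested. Depth limits Shisa2, at 9 to 17 counts a library on low salt.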

Other observations

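For blood and proximal tubule transcripts the median difference of the responses had opposite signs in the batches. Over 13 tested erythroid genes, globins among them, the median difference of the responses was 0.07, but 1.29 in batches 1 alone and -1.80 in batches 2 alone. Both responses had medians above 0 (0.83 and 0.82). Their sum did not overlap between aldosterone and control, while on low salt (3009 to 6687 CPM) it overlapped high salt (1225 to 4870 CPM). Over 11 proximal tubule genes the median difference was -0.46, with 0.85 in batches 1 and -1.66 in batches 2. For the urothelial markers it was 1.80 and -0.21. None of these members passed the threshold in edgeR and DESeq2 called 0. Among the lists, 0 erythroid and 0 proximal tubule genes reached an unadjusted p under 0.05, and 1 urothelial gene did, against 13.1% of all genes.

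Proteasome subunits had small differences of 1 sign: 28 of 31 were positive, with a median of 0.13, and 29 of 31 with upper quartile scaling. None passed in edgeR, 11 had an unadjusted p under 0.05 and DESeq2 called 5, against 6.75% and 1.96% of all genes. On low salt 7 of the 31 fell past the threshold (background 1.46%) and 12 were below all high-salt libraries (10.9% of all genes did not overlap, in either direction), while 0 of 31 differed without overlap in the aldosterone experiment. Nuclear genes of oxidative phosphorylation had a positive difference in 30 of 31 (median 0.23, or 0.15 without aldosterone replicate 3 and in batches 1 alone). In edgeR 0 passed and 8 had an unadjusted p under 0.05, and DESeq2 called 1 of 31, near the background.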
